A study of Mus musculus with 8 samples.

Results

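The B cell receptor complex and its signalling genes were described here as 9 genes, taken by symbol from a table of 37979 genes: Cd79a, Cd79b, Ms4a1, Cd22, Cr2, Fcer2a, Blk, Btk and Blnk. Each symbol matched a single row, and all 9 genes were above 0 in every library. Levels are in FPKM, which scales fragments to transcript length and to mapped reads, so that different genes compare per length. Cells came from the hindlimbs of mice carrying Ai14+/-;SM22α-Cre+, of both sexes and aged 3 to 4 months, in which Cre under the SM22α promoter leaves SM22α+ cells permanently labelled with tdTomato. Pericytes were sorted as PDGFRβ+tdTomato- cells and SMCs (smooth muscle cells) as PDGFRβ+tdTomato+ cells, and cells stained for CD31 or CD45 were gated out of both. Each group has 4 libraries, described as biological replicates, several sorts were combined for a library, all 8 carry the same batch label, and there was no further treatment. A sort by SM22α promoter history also places any tdTomato+ pericyte among the SMCs.

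B cells recognise antigen through a membrane immunoglobulin that has almost no signalling tail of its own. The signalling chains encoded by Cd79a and Cd79b carry the signal into the cell, Src family kinases phosphorylate them, and the adaptor Blnk then brings the kinase Btk to its targets. Surface receptors such as CD20, CD21, CD22 and CD23 tune how strongly the complex responds. Cd79a, Cd79b, Ms4a1, Cd22, Cr2 and Fcer2a are textbook genes of the B lineage, whereas Btk and Blnk are also used by myeloid cells, and none of these genes is a known marker of mural cells.

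The summed FPKM was between 656405 and 782014 in 7 libraries and 1190435 in pericyte replicate 2, which stood apart. The most common FPKM ratio to pericyte replicate 1, over genes low in both libraries, gave relative depths of 0.865 (pericyte replicate 2) to 1.07, but no number of reads. All 7 smooth muscle genes had a higher fitted level in SMCs, the direction of the label (median log2 fold change -1.42, pericytes over SMCs), and so did all 8 pericyte genes, against the label (median -1.32). By the thresholds given below limma called 0 of 7 and 0 of 8 of these genes, with 4 and 5, respectively, at an unadjusted p below 0.05. With replicate number as a block, 0 of 7 and 1 of 8 were called, the latter being Pdgfrb, higher in SMCs (limma q = 0.00601). With that block 6 of 8 pericyte genes were at a q below 0.05, higher in SMCs, against 1 of 8 without it. Pdgfrb itself averaged 9.70 FPKM in pericytes (SD 6.59, n = 4) and 47.4 FPKM in SMCs (SD 37.2, n = 4). Ptprc, which encodes the CD45 used to gate out leukocytes, ranged from 80.6 to 230.3 FPKM over pericytes and from 4.34 to 11.9 FPKM over SMCs. Both groups were PDGFRβ-gated bulk populations, so a smaller number of cells that express a gene and less RNA per cell cannot be told apart in any value below.

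The 9 genes were called higher in pericytes without exception. At a q value below 0.05 and a log2 fold change above 2, limma called 9 of 9 higher in pericytes and 0 of 9 higher in SMCs, while 3.24% of the 27414 genes tested were called higher in pericytes and 2.66% higher in SMCs. All 9 also had every pericyte library above every SMC library, as 12.1% of tested genes did. Their log2 fold changes ran from 2.83 (Blnk) to 6.12 (Cd79a) with a median of 4.32, against a median of 0.02 over all genes tested. These fold changes are on the log2(FPKM + 1) scale, which understates the change of genes near or under 1 FPKM, as most of the 9 were in SMCs. Each library pools several sorts, and q values measure the spread between these libraries. Without pericyte replicate 2, the count was again 9 of 9.

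**Figure D1:**
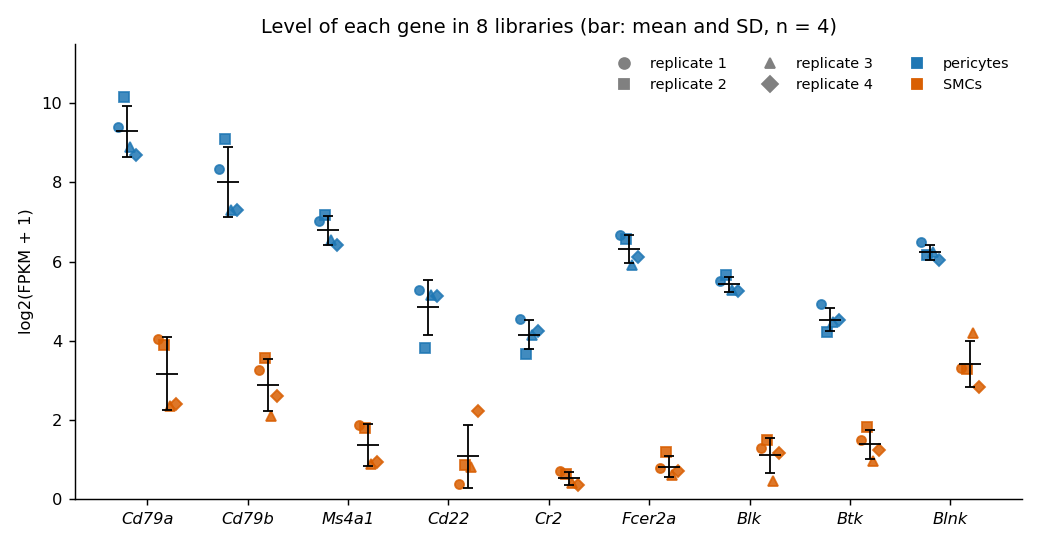
Level of each of the 9 genes as log2(FPKM + 1) on the vertical axis, with 1 point for each library (blue for pericytes, orange for SMCs, a marker shape for each replicate number) and black bars for the mean and SD of 4 libraries. In every gene the lowest blue point lies above the highest orange point, with the narrowest gaps in Cd22 and Blnk.

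The promoters of Cd79a and Blnk are shown because these genes had the largest and the smallest fold change on the log2(FPKM + 1) scale. With 0.1 in place of 1 added, Fcer2a had the largest, 6.55 against 6.30 for Cd79a. RefSeq promoters on GRCm38.p6 were at hand for 6 of the 9 genes (8 starts, 3 of them of Fcer2a), and not for Cd79b, Ms4a1 and Blk. The 250 bases before each start are given 5′ to 3′ on the strand of the gene. Capitals mark the motifs searched on both strands: the octamer ATTTGCAT bound by Oct proteins and the EBF core CCCNNGGG. The PU.1 core was searched as GAGGAA. E-boxes were searched in the forms CAGCTG and CAGGTG. The TATA box was searched as TATAAA, and none of these words is part of another. On GRCm38.p6 the Cd79a stretch lies at chr7:24897247-24897496 on the plus strand and the Blnk stretch at chr19:40994222-40994471 on the minus strand.
Cd79a: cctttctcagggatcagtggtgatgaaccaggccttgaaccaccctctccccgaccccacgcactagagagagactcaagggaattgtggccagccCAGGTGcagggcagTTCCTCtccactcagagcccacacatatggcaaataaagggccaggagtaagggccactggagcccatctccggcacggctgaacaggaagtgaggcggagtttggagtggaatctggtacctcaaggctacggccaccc
Blnk: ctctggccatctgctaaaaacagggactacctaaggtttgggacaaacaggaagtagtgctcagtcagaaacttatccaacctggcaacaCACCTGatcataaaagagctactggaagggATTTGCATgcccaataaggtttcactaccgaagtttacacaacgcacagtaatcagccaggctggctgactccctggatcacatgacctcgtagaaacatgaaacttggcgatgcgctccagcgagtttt

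In the Cd79a stretch the capitals are an E-box (CAGGTG) and, on the other strand, a PU.1 core. In the Blnk stretch they are an E-box on the other strand and an octamer that begins 130 bases before the start. The octamer was in 1 of the 8 promoters of these genes and in 1.6% of 32851 promoters, and CAGGTG was in 5 of 8 and in 17.2%. Each of the other motifs was in 1 of the 8, where 23.3% of all promoters held GAGGAA, 13% CAGCTG, 12.4% TATAAA and 11.8% CCCNNGGG. These are letter matches and were not tied to binding or to the levels below.

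The signalling chains were the most abundant of the 9 genes in pericytes. Cd79a (ENSMUSG00000003379, chromosome 7 of NCBIM37 from 25682400 to 25687216, plus strand) encodes the Igα chain. Pericyte replicates 1 to 4 had 671, 1145, 478 and 415 FPKM, and SMC replicates 1 to 4 had 15.5, 13.7, 4.08 and 4.30 FPKM. Pericyte replicate 2 was the highest library, and the lowest pericyte library was 26.7 times the highest SMC library. A log2 fold change of 6.12 (SE 0.51) was estimated, with limma q = 0.000249, and the ratio of the group means was 72.0.

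Cd79b (ENSMUSG00000040592, chromosome 11 from 106172655 to 106176076, minus strand) encodes Igβ, the partner chain. It had 323, 549, 158 and 156 FPKM in pericyte replicates 1 to 4 and 8.64, 10.8, 3.24 and 5.10 FPKM in SMC replicates 1 to 4. Replicates 1 and 2 were above replicates 3 and 4 in both groups, as for Cd79a, and the groups did not overlap. Pericytes exceeded SMCs by a log2 fold change of 5.13 (SE 0.50, limma q = 0.000475). The chains pair in the receptor, and the ratio of Cd79a to Cd79b FPKM was 2.08 to 3.03 in the pericyte libraries and 0.842 to 1.80 in the SMC libraries. Cd79a was thus above Cd79b in every pericyte library and in 3 of 4 SMC libraries.

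The surface receptors differed in level by several fold among themselves. Ms4a1 (ENSMUSG00000024673, chromosome 19 from 11324654 to 11340669, minus strand) encodes CD20, a membrane protein of mature B cells. Its pericyte values were 129, 144, 93.0 and 84.0 FPKM and its SMC values 2.64, 2.48, 0.835 and 0.925 FPKM in replicates 1 to 4. It followed Cd79a closely, with replicates 1 and 2 above replicates 3 and 4 in both groups. A log2 fold change of 5.42 (SE 0.30) was estimated, with limma q = 4.39e-05.

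Fcer2a (ENSMUSG00000005540, chromosome 8 from 3681737 to 3694174, minus strand) encodes CD23, the low-affinity IgE receptor of follicular B cells. It had 101, 93.3, 59.5 and 67.8 FPKM in pericytes and 0.710, 1.29, 0.517 and 0.620 FPKM in SMCs. Its ratio of group means, 102, was the highest of the 9 genes, and its lowest pericyte library was 46.1 times its highest SMC library. Pericytes exceeded SMCs by a log2 fold change of 5.50 (SE 0.21, limma q = 1.19e-05).

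Cr2 (ENSMUSG00000026616, chromosome 1 from 196963005 to 197002909, minus strand) encodes complement receptor CD21, which lowers the threshold for B cell activation by complement-coated antigen and is also carried by follicular dendritic cells. Its mean was the lowest of the 9 genes in each group, from 22.4, 11.6, 16.7 and 18.0 FPKM in pericytes and 0.632, 0.536, 0.317 and 0.279 FPKM in SMCs. Its pericyte replicate 2 was the lowest pericyte library, the reverse of Cd79a. A log2 fold change of 3.63 (SE 0.19) was estimated, with limma q = 3.64e-05, and 5.01 with 0.1 in place of 1 added to FPKM.

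Cd22 (ENSMUSG00000030577, chromosome 7 from 31650421 to 31665361, minus strand) encodes a sialic acid-binding receptor that restrains B cell receptor signalling. It had the highest coefficient of variation of the 9 genes in SMCs, 111.7% of the mean FPKM. The pericyte values were 38.0, 13.0, 34.6 and 34.1 FPKM, where replicate 2 was far below the others, and the SMC values were 0.303, 0.806, 0.764 and 3.71 FPKM, where replicate 4 was far above the others. The groups still did not overlap, with the lowest pericyte library 3.52 times the highest SMC library. Pericytes exceeded SMCs by a log2 fold change of 3.77 (SE 0.49, limma q = 0.00157), and 4.16 without SMC replicate 4.

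The kinases and the adaptor act inside the cell. Blk (ENSMUSG00000014453, chromosome 14 from 63991674 to 64036024, minus strand) encodes a Src family kinase found mainly in B cells. It had 44.1, 49.6, 37.7 and 37.1 FPKM in pericytes and 1.43, 1.80, 0.374 and 1.24 FPKM in SMCs. The 4 pericyte values were within a factor of 1.34 of each other (1.53 after TPM scaling), the narrowest of the 9 genes on either scale, and the log2 fold change was 4.32 (SE 0.23, limma q = 3.59e-05).

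Btk (ENSMUSG00000031264, chromosome X from 131076875 to 131118109, minus strand) encodes the Tec family kinase that activates phospholipase Cγ2 and whose loss stops B cell development in people. Its pericyte values were 29.4, 17.5, 21.2 and 21.8 FPKM, and its SMC values were 1.81, 2.55, 0.933 and 1.37 FPKM. Replicate 2 was the lowest of the pericytes and the highest of the SMCs. A log2 fold change of 3.15 (SE 0.22) was estimated, with limma q = 0.000111.

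Blnk (ENSMUSG00000061132, chromosome 19 from 41003417 to 41069025, minus strand) encodes the adaptor that links Syk to Btk and phospholipase Cγ2. It had 89.5, 71.4, 74.3 and 64.8 FPKM in pericytes and 8.94, 8.76, 17.3 and 6.07 FPKM in SMCs. It was the gene of the 9 with the highest mean in SMCs, 10.3 ± 4.89 FPKM (SD, n = 4), where replicate 3 was the highest library. Pericytes exceeded SMCs by a log2 fold change of 2.83 (SE 0.28, limma q = 0.000489), and 3.10 without SMC replicate 3.

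**Figure D2:**
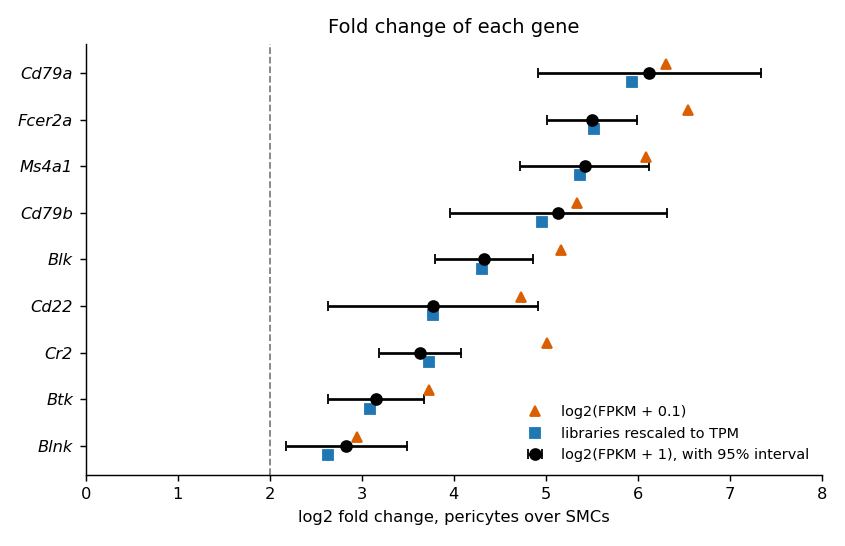
Log2 fold change (pericytes over SMCs, horizontal axis) of each gene on the log2(FPKM + 1) scale with its 95% interval from limma (black), on the log2(FPKM + 0.1) scale (orange) and after rescaling each library to TPM (blue). All 9 intervals lie above the dashed line at 2. The smaller pseudocount moves Cr2 most, from 3.63 to 5.01.

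The 95% intervals of the fold changes overlapped for some of the genes and were apart for others. Cd79a (4.91 to 7.33), Fcer2a (5.01 to 5.98), Ms4a1 (4.72 to 6.12) and Cd79b (3.95 to 6.31) overlapped one another. The interval of Blnk (2.18 to 3.49) lay below those of these 4 genes and of Blk (3.79 to 4.85), but overlapped those of Btk (2.63 to 3.67), Cr2 (3.18 to 4.08) and Cd22 (2.63 to 4.91). The interval of Fcer2a also lay above those of Blk, Cd22, Cr2 and Btk. Whether the fold change differed between genes was not tested.

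The order of the levels was not the same in the groups. In pericytes the mean FPKM fell from Cd79a (677) through Cd79b (296), Ms4a1 (112), Fcer2a (80.4), Blnk (75.0), Blk (42.2), Cd22 (29.9) and Btk (22.5) to Cr2 (17.2). Among neighbours in that order, the ranges of the 4 libraries were apart only between Cd79b and Ms4a1 and between Blnk and Blk. Fcer2a was above Blnk in 3 of 4 libraries and Cd22 above Btk in 3 of 4. In SMCs the order was Blnk (10.3), Cd79a (9.40), Cd79b (6.94), Ms4a1 (1.72), Btk (1.67), Cd22 (1.40), Blk (1.21), Fcer2a (0.784) and Cr2 (0.441). There the ranges of neighbours were apart only between Cd79b and Ms4a1, and Blnk was above Cd79a in 2 of 4 libraries. The place of Cd22 rested on SMC replicate 4, at 3.71 FPKM against 0.303 to 0.806 FPKM in the others. Cd22 was above Blk in 2 of 4 SMC libraries.

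The summed FPKM of the 9 genes was 899 to 2094 in pericyte libraries and 23.6 to 42.7 in SMC libraries. Cd79a and Cd79b together made up 63.6% to 80.9% of that sum in pericytes and 25.8% to 59.5% in SMCs. Without SMC replicate 3 their lowest SMC share was 39.8%. Blnk made up 3.41% to 7.64% in pericytes and 20.5% to 61.1% in SMCs. Without pericyte replicate 2 its lowest pericyte share was 6.18%, and without SMC replicate 3 its highest SMC share was 25.7%. Cd22 held 15.7% of the sum in SMC replicate 4 and at most 3.79% in any other library. Fcer2a held 4.46% to 7.54% in pericytes and 1.75% to 3.02% in SMCs. The shares of Cd79a, Ms4a1 and Fcer2a were higher in every pericyte library, and those of Blnk and Btk in every SMC library. These shares add to 100% within a library, so they are not independent of each other, and they were not tested.

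**Figure D3:**
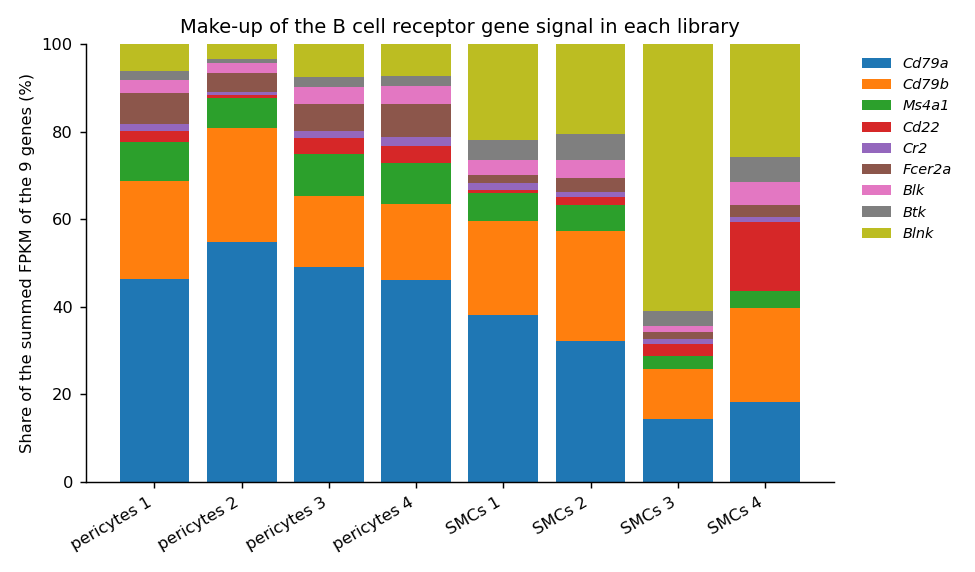
Share of each gene in the summed FPKM of the 9 genes (vertical axis, percent) in each of the 8 libraries, stacked. Cd79a and Cd79b fill 63.6% to 80.9% of the pericyte bars, while Blnk fills 61.1% of the bar of SMC replicate 3 and 20.5% to 25.7% of the other SMC bars.

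Within the groups the genes did not all vary together. Replicates 1 and 2 were both above replicates 3 and 4 for 5 of the 9 genes in pericytes (Cd79a, Cd79b, Ms4a1, Fcer2a and Blk) and for 7 of 9 in SMCs (all but Cd22 and Blnk). The same pattern was seen in 27.4% and 33.6%, respectively, of the 13612 genes that averaged 1 FPKM or more. With each library rescaled to TPM, only Cd79a and Cd79b kept this pattern in pericytes (2 of 9), while 7 of 9 genes showed it in SMCs. This scaling lowers every gene of pericyte replicate 2 relative to the other pericytes. The shares of all genes on TPM were not counted, so these TPM counts are not read as particular to the 9 genes. The Cd79a mean of replicates 1 and 2 was 2.03 times that of replicates 3 and 4 in pericytes and 3.49 times in SMCs.

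Pericyte replicate 2 was above the mean of the other pericyte libraries by 1.46 for Cd79b and 1.16 for Cd79a on the log2(FPKM + 1) scale, and below it by a difference of -1.38 for Cd22, -0.66 for Cr2 and -0.43 for Btk. This library also had the highest summed FPKM, and on the log2(TPM + 1) scale, which sets all sums equal, its differences were 0.75 for Cd79b, 0.46 for Cd79a, -2.06 for Cd22, -1.32 for Cr2 and -1.10 for Btk. It was the lowest pericyte library for 3 of 9 genes on FPKM, where 32.5% of the 13612 genes were lowest in it. On TPM it was the lowest for 6 of 9, and replicate 1 was then the highest for Cd79a and Cd79b. TPM scaling lowers every gene of this library relative to the other pericytes. The share of all genes lowest in it on TPM was not counted, so 6 of 9 is not read as particular to these genes. Length moved with the differences of pericyte replicate 2: the longest annotated transcript has 1431 bases in Cd79b and 1457 in Cd79a, against 4097 in Cd22 and 6207 in Cr2. Blnk, at 4534 bases, differed by only -0.08 on FPKM, and Btk, at 2540 bases, by more than Blnk. Across the 9 genes, Spearman's rho between transcript length and the difference of pericyte replicate 2 from the other pericytes on FPKM was -0.87, and across 13588 genes that averaged 1 FPKM or more it was -0.55. These correlations are across genes that share the same libraries. The part of length in the member values was not tested.

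**Figure D4:**
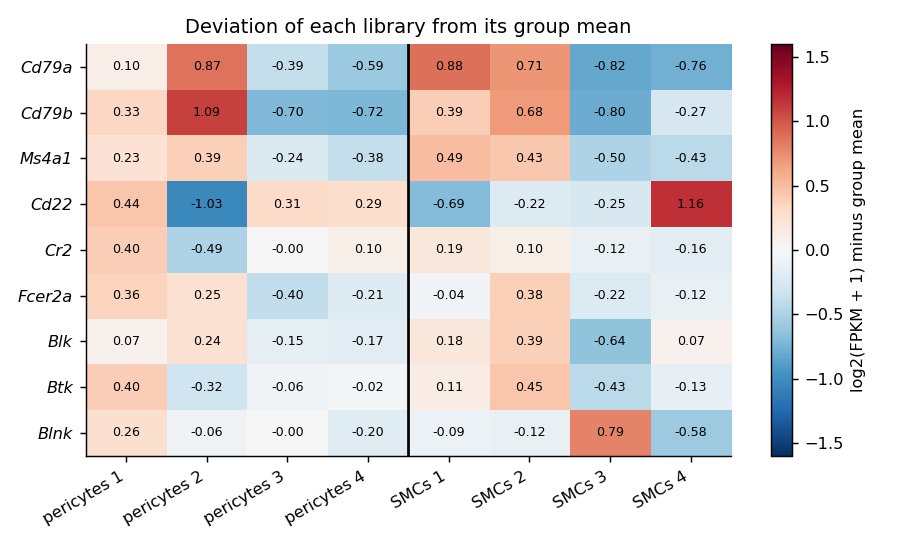
Difference of log2(FPKM + 1) in each library from the mean of its group, for the 9 genes (rows) and 8 libraries (columns), with red for values above the mean and blue for values below. Pericyte replicate 2 is red for Cd79a and Cd79b and blue for Cd22 and Cr2, and Cd22 is reddest in SMC replicate 4.

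Over all 8 libraries the 36 pairs of genes had Pearson correlations of log2 levels from 0.869 to 0.996, over points that share the gap between groups. After the group means were subtracted they ran from -0.72 (Cd79a with Cd22) to 0.98 (Cd79a with Ms4a1), and 13 of 36 were negative, 6 of them with Cd22. Over 8 libraries and 13611 other genes, the levels most like Cd79a were those of Igkv3-10 (r = 0.999), 1110054O05Rik, Slamf1, Coro1a and Cyp4f18 (r = 0.997). For the mean of the 9 genes they were BC094916 (r = 0.999), H2-Ob, Cd72, Stk17b and Haao (r = 0.998). After the group means were subtracted, Ctsg (r = 0.996), Cops7b, Ms4a3, Ppp4r2 (r = 0.994) and a kappa variable segment were most like Cd79a, and Gm889 (r = 0.996), Dcbld2, Fut10, Vcan and Gm15261 were most like the mean. Ctsg and Ms4a3 are genes of myeloid precursors. The libraries are few and shared by all genes, and single immunoglobulin kappa segments such as Igkv3-10 can share reads with near-identical copies.

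Coreceptors and inhibitory receptors of the same pathway were mostly higher in pericytes. Of 9 such genes in the table, 7 were called higher in pericytes and 0 higher in SMCs. Cd5, also a T cell gene, had a log2 fold change of 5.03, Cd37, a tetraspanin of lymphocytes, one of 4.82, and Ptprc one of 4.24. Cd81, a tetraspanin made by B cells and by many other cell types, went the other way, at 384 ± 160 FPKM in pericytes against 1440.3 ± 225 in SMCs (SD, n = 4 each). Its log2 fold change of -1.98 was under the fold threshold of 2 but passed the q threshold (limma q = 0.00241), and it was -2.22 after TPM scaling. Fcgr2b, the inhibitory IgG receptor, had 49.8 ± 17.4 and 20.8 ± 4.88 FPKM (SD, n = 4 each) and a log2 fold change of 1.19 (limma q = 0.0211).

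Among the kinases, phosphatases and adaptors next to the receptor, 15 of 24 were called higher in pericytes and 0 higher in SMCs. Bank1, a B cell scaffold protein, had the largest log2 fold change, 4.60, with 56.0 ± 15.3 FPKM in pericytes against 1.32 ± 0.495 in SMCs (SD, n = 4 each; limma q = 3.8e-05). It was followed by Pik3cd (3.49), the lymphocyte catalytic subunit of PI3 kinase, Vav1 (3.39), an exchange factor, and Ptpn6 (3.36), the phosphatase that CD22 recruits. Syk, the kinase that docks on the phosphorylated Igα and Igβ chains, had 35.0 ± 15.4 FPKM in pericytes against 3.37 ± 1.86 in SMCs (SD, n = 4 each; log2 fold change 3.01, limma q = 0.00239). Lyn, the Src family kinase that starts both activating and inhibitory signals, was nearer between groups, at 60.2 ± 5.47 and 19.2 ± 3.48 FPKM (SD, n = 4 each; log2 fold change 1.61, limma q = 0.000296).

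Downstream the difference was smaller. Of 17 calcium, Ras and NF-κB genes, 5 were called higher in pericytes and 0 higher in SMCs, with a median log2 fold change of 0.76, against 2.50 for the proximal genes and 4.03 for the coreceptors. Rasgrp1, an exchange factor for Ras, had a log2 fold change of 3.65, Prkcb, a protein kinase C, one of 3.08, and Rel, an NF-κB subunit, one of 2.34. Malt1, a protease of the NF-κB branch, was called (log2 fold change 2.32, limma q = 0.00616), while Bcl10, its binding partner, had 160 ± 36.1 FPKM in pericytes against 105 ± 8.87 in SMCs (SD, n = 4 each; log2 fold change 0.58, limma q = 0.0407). Akt1 had 9.49 ± 3.37 and 9.26 ± 2.61 FPKM (SD, n = 4 each; limma q = 0.985). Whether these lists differ from each other was not tested.

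**Figure D5:**
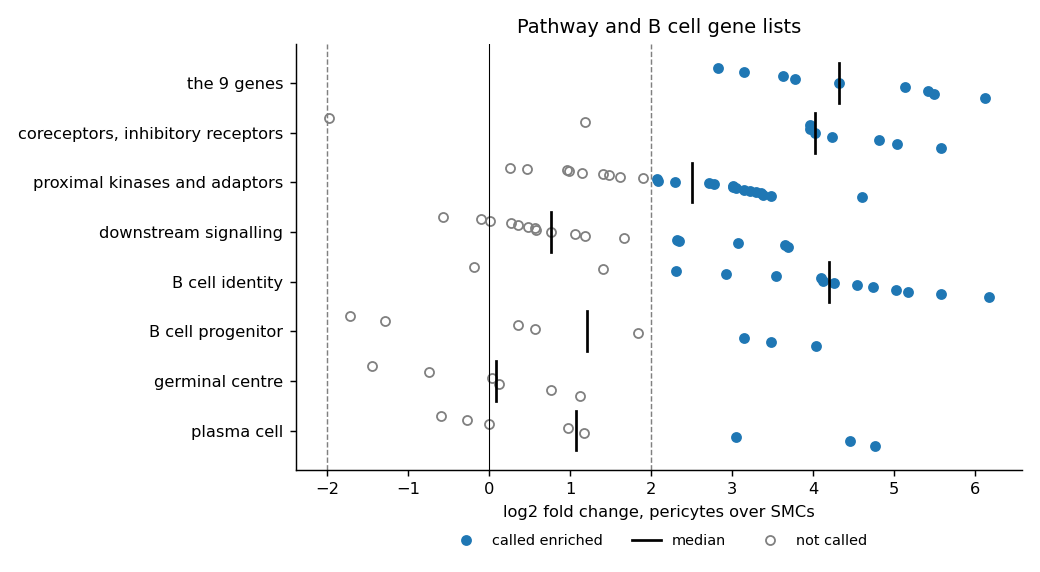
Log2 fold change (pericytes over SMCs, horizontal axis) of the 9 genes and of each gene in 7 lists, with filled points for genes called enriched, open points for the others, black bars for list medians and dashed lines at -2 and 2. The median falls from 4.03 for coreceptors to 2.50 for proximal and 0.76 for downstream genes, and no germinal centre gene is filled.

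Other genes of the B lineage were read beside the 9. Of 14 B cell identity genes, 12 were called higher in pericytes and 0 higher in SMCs, and their summed FPKM spanned 1270.1 to 2382 in pericytes and 104 to 214 in SMCs. Ly6d (732 ± 309 against 78.1 ± 60.3 FPKM; SD, n = 4 each), Faim3, the IgM Fc receptor gene (237 ± 65.6 against 2.43 ± 1.43), and H2-Ob (186 ± 33.1 against 4.26 ± 1.40) had the highest levels. Those not called were Pax5 and Ebf1. Pax5 was low, at 1.78 ± 0.331 and 0.0424 ± 0.0322 FPKM (SD, n = 4 each; log2 fold change 1.41, limma q = 8.9e-05), but its groups did not overlap, its ratio of means was 42.1, and with 0.1 added it was called (log2 fold change 3.74, limma q = 5.5e-05). Ebf1 had 49.0 ± 12.2 FPKM in pericytes against 58.0 ± 24.1 in SMCs (SD, n = 4 each; limma q = 0.758). Ebf1 is also expressed by mural cells and other mesenchyme.

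Genes of B cell stages were read as separate lists, and whether these lists differ from each other was not tested. Over all genes tested, 3.24% were called higher in pericytes and 2.66% higher in SMCs. Of 8 progenitor genes, 3 were called higher in pericytes: Igll1, a surrogate light chain gene (132 ± 134 against 7.02 ± 7.10 FPKM; SD, n = 4 each), Vpreb1, its partner (36.5 ± 28.0 against 2.81 ± 2.43), and Dntt, the terminal transferase of early lymphocytes (15.6 ± 4.44 against 0.468 ± 0.343). Igll1 varied from 18.2 FPKM in pericyte replicate 3 to 315 in pericyte replicate 2, and from 0.0887 to 13.5 in SMCs. Cd93, used by endothelium too, was at 4.98 ± 1.01 and 19.9 ± 8.87 FPKM (SD, n = 4 each) in pericytes and SMCs (limma q = 0.00813). None of 6 germinal centre genes was called by limma in either direction (4 at an unadjusted p below 0.05), though Bcl6 passed the q threshold higher in pericytes and S1pr2 higher in SMCs. Of 8 plasma cell genes, 3 were called higher in pericytes, and Igj, the J chain gene, varied from 68.4 to 492 FPKM among pericyte libraries. Xbp1 and Sdc1 were not called, though Xbp1 passed the q threshold higher in SMCs, at 194 ± 27.2 FPKM in pericytes against 295 ± 50.5 in SMCs (SD, n = 4 each; log2 fold change -0.60, limma q = 0.0304).

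Markers of other cell types moved with the 9 genes to different degrees, and their part in these results was not tested. T cell genes were called higher in pericytes in 7 of 8 cases, with a summed FPKM between 1654 and 2547 in pericytes against 31.7 to 61.9 in SMCs, led by Cd3g, Lck and Cd2. Macrophage and monocyte genes, whose cells also use Btk, Blnk and Syk, were called higher in pericytes in 1 of 10 cases (Ly6c2) and higher in SMCs in 2 of 10 (C1qa and Mrc1), and their sums overlapped, at 1629 to 3788 and 1176 to 1830 FPKM, with Lyz2, Ly6c2 and Cd14 the most abundant. Csf1r was 4.49 to 32.4 FPKM in pericytes and 12.6 to 68.3 FPKM in SMCs. Neutrophil genes were called higher in pericytes in 2 of 7 cases, Mpo and Elane, and their sums overlapped (1256 to 5486 against 248 to 2990 FPKM), with S100a8, S100a9 and Elane the most abundant. Mast cell genes summed to 42.6 to 70.8 FPKM in pericytes and 3.25 to 19.3 in SMCs, with 1 of 6 called. The lowest of these sums was that of SMC replicate 3 alone, where Cma1, Mcpt4 and Cpa3 were at 0. Lymph node stroma genes went the other way, with 0 of 7 called higher in pericytes and 2 of 7 higher in SMCs (Cxcl13 and Pdpn), and with sums of 175 to 388 and 698 to 1384 FPKM. Endothelial genes were called higher in SMCs in 4 of 7 cases. Fibroblast genes were called higher in SMCs in 6 of 7 cases, the exception being Dcn, listed at 0 in every SMC library. None of 7 skeletal muscle and satellite cell genes was called by limma (1 at an unadjusted p below 0.05), at sums of 25.6 to 50.1 and 49.2 to 84.5 FPKM.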

How the data were processed

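RNA was amplified with SMART-Seq v4, and Nextera XT libraries were sequenced as paired reads. With Bowtie2, TopHat and an Ensembl annotation the authors placed reads on NCBI Build 37, and they deposited FPKM for 37979 genes in 8 libraries. The program that computed FPKM and its use of strand are not given in the sources used here.

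On the log2(FPKM + 1) scale, limma 3.58.1 (R 4.3.3) compared the groups, with Benjamini-Hochberg adjustment (q value) over the 27414 genes above 0 FPKM in at least 1 library. Genes were called at a q value below 0.05 and a log2 fold change above 2. The test was checked on simulated data. The labels also point to a table of raw counts, which was not used here, so the reads behind an FPKM value are not known and no counting error is given. Positions are from GENCODE vM1 (NCBIM37).

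Members and lists were chosen with earlier results of these data known. All 9 members were named. From each pathway list, up to 4 called genes with the largest fold change were named, and from each marker list up to 3 with the highest mean, with Ptprc. Some genes that this rule names are not reported here. Of the most alike genes, the first 5 were named. Cd81, Fcgr2b, Syk, Lyn, Malt1, Bcl10, Akt1, Pdgfrb and other list genes named beside these were chosen after their values were seen. Where a symbol had several rows, the row with the highest mean was used. Pirb and Hras were not analysed here. The alternatives tried were the replicate block, an intensity trend, a covariate for replicates 1 and 2 against 3 and 4, scaling by quantiles, by TPM or by median ratios, adding 0.1 in place of 1, testing every listed gene or those at 1 FPKM in at least 4 libraries, and leaving out each library. The ratio of means without a pseudocount was chosen after seeing the data. Figures were made with Python 3.11.15 and matplotlib 3.10.9.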

Additional observations from a re-analysis of the deposited data

Results flagged for a closer look

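Among 18 groups of 4 libraries (9 genes in pericytes and in SMCs), 1 held a library far from the others by Dixon's criterion on log2(FPKM + 1). It was Cd22 in pericyte replicate 2, at 13.0 FPKM against 34.1 to 38.0 FPKM in the other pericyte libraries. Its gap to the nearest library was 0.896 of the range of the group. Chance marks about 1 in 20 independent groups, and a single case among 18 is no more than a flag. The 18 groups share the same 8 libraries, so the count was not tested against chance.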

How the results depend on the processing

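All 153 tested fold changes of the 9 genes under 17 alternatives kept their direction and their call, with a limma q value of at most 0.00820. Of the 50 pathway genes, 27 were called, and 24 to 29 were called over the alternatives. Blnk had the lowest value, 2.63 with TPM scaling. Over genes at 1 FPKM in at least 4 libraries, that scaling shifted the log2 fold change by a median of -0.23. TPM scaling also turned the split of all calls from 888 higher in pericytes and 728 in SMCs to 822 and 1019. A pseudocount of 0.1 gave 1328 and 1421. It raised Fcer2a to 6.55 and Cr2 to 5.01, so the fold of these genes, both under 1 FPKM on average in SMCs, depends on the pseudocount. With each library left out in turn, the number of members called was 9 to 9, and Cd22 ranged from 3.54 to 4.16. Same-numbered libraries deviated together with correlations of 0.0794 to 0.474 across genes (4 pairs), and 5 of 8 libraries correlated best with their own number. The highest correlation was between pericyte replicate 2 and SMC replicate 1 (0.538). Every pair within replicates 1 and 2, or within 3 and 4, was positive, and every pair across them negative (-0.102 to -0.451). Both gates were set on muscle cell suspensions, but whether same-numbered libraries shared a sort is not given in the sources used here. The main fit took no pairs, and the replicate block is the alternative that does. The replicate block called 9 of the 9 members, with 881 genes higher in pericytes and 739 in SMCs. Among the list genes it added calls for Cd4 and Cma1 (higher in pericytes) and for Kdr, Tie1, Glycam1 and Pdgfrb, the gene of the gate (higher in SMCs), and lost Cldn5. Pdgfrb had a limma q of 0.00601 with the block and 0.0973 without it, and 6 of 8 pericyte genes were at a q below 0.05, higher in SMCs, against 1 of 8 without it.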
